A study of Rattus norvegicus with 3 samples.

Results

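The Hox genes of rat wound skin were read by cell class in 3 single-cell RNA libraries. Members were all rows whose deposited symbol is Hox followed by a letter from a to d and a number, which gave 43 of 32883 rows and 37 distinct symbols, with 9 symbols in cluster A, 10 in cluster B, 9 in cluster C and 9 in cluster D. No measured value entered that choice. The animals were wild-type male SD rats, 8 to 10 weeks old in the design text, made diabetic with 65 mg/kg streptozotocin, a toxin of the insulin-producing cells, and used when blood glucose was over 16.7 mM. Each had a full-thickness skin wound 15 mm across, sampled after 7 days, and the wound was either untreated, treated with a hyaluronic acid hydrogel (hydrogel) or treated with a CO-releasing hyaluronic acid hydrogel (CO hydrogel). There was 1 library per group. The labels give neither the number of animals behind a library nor the body site of the wound, so treatment, animal and body site cannot be told apart, no difference was tested and no p-value is given.

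Hox genes encode homeodomain transcription factors that stand in 4 genomic clusters. Within a cluster the genes are numbered by paralog group, and in the embryo low numbers are used towards the head while high numbers are used towards the tail and the ends of the limbs. Adult skin fibroblasts keep much of the Hox pattern of the place where they arose, and for that reason Hox genes are read as a positional code. Hoxc10 and Hoxc11 belong to the caudal end of cluster C, which is used in the lumbar region, hindlimb and tail. Hoxc4 to Hoxc6 belong to its rostral end and are used in the neck, forelimb and upper trunk.

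In the order of the RefSeq rat assembly GRCr8 the end of cluster C on which the libraries differed runs Hoxc11, Hoxc10, Mir196a, Hoxc9 and Hoxc8. The microRNA of that interval, known for repressing Hox messages, was not measured in these 3′ libraries. Its mature sequence is shown because it marks the interval between the last gene found on in every library (Hoxc9) and the first found on in the untreated library alone (Hoxc10), and capitals mark the seed, bases 2 to 8. It lies on the plus strand at chr7:135988900-135988921 of GRCr8.
rno-miR-196a-5p: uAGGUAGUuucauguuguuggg
Of the 37 Hox symbols, 37 matched a RefSeq gene and 19 had a promoter sequence. The promoters of Hoxd9 (chr3:80007756-80008055, plus strand) and Hoxd10 (chr3:80001697-80001996, plus strand), each 250 bases before to 50 bases after the gene's start, are shown because these neighbouring genes were the cluster D genes on in endothelial-like cells of all 3 libraries. Capitals would mark a match to any of 3 motifs searched on both strands, TGATTNAT for PBX-HOX pairs, TTTATGG for caudal HOX and CDX proteins, and TATAAA for the TATA box, and neither window held one.
Hoxd9 promoter: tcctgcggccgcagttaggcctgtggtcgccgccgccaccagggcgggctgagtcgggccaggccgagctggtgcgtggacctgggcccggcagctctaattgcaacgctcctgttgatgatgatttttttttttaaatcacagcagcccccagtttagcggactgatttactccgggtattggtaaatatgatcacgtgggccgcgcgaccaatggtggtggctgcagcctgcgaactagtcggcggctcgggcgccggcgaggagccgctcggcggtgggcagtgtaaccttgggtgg
Hoxd10 promoter: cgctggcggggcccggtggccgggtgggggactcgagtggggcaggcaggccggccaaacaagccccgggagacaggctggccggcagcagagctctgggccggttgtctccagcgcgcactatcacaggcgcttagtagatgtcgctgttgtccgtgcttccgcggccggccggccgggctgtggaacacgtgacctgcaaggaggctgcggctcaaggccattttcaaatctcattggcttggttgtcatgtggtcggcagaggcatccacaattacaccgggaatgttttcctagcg
Among 33469 promoters of 300 bases, 3.18% held TGATTNAT, 3.07% held TTTATGG and 14.2% held TATAAA. The Hoxd9 window held 27 CpG dinucleotides and the Hoxd10 window 24, against a median of 7 over all those promoters.

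The deposited matrices held 12883 barcodes and 78233883 UMIs (unique molecular identifiers, each marking 1 captured RNA molecule) in the untreated library. The hydrogel library held 15442 barcodes and 109148721 UMIs, and the CO hydrogel library 15376 barcodes and 109718517 UMIs. After filtering, 10550, 12069 and 12659 cells were kept, with median depths of 2633.5, 5941 and 6096 UMIs. The libraries shared some barcodes: among kept cells 276 were common to untreated and hydrogel, 454 to untreated and CO hydrogel, and 347 to hydrogel and CO hydrogel. Kept cells held 4348, 6253 and 9006 Hox UMIs. Cells were grouped by clustering without the Hox genes and named from marker genes, and a name ending in "-like" means only that.

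Of the 43 Hox rows, 27 had a UMI in some barcode and 16 had none in any library. Of those 16 rows, 11 were Hoxa rows, 2 Hoxb, 1 Hoxc and 2 Hoxd. The Hoxa rows were affected by repeats in the annotation: 11 rows shared 5 symbols, Hoxa2 among them, and 8 of the 16 empty rows carried such a symbol. Hoxa5 and Hoxa6 were not among the listed symbols. Reads that fit more than 1 copy may not have been counted, which was not tested, so low Hoxa values are not read here as silence of the cluster. The repeated symbols do not include Hoxa7, Hoxa9 and Hoxa10, whose rows were also empty in every library. Why those rows were empty was not tested.

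A Hox gene was called on in a class of a library when it had at least 5 UMIs, a level of at least 5 CPM (its UMIs per 1000000 UMIs summed over the cells of that class) and a lower 95% Poisson bound above the upper bound in the leukocyte-like cells of the same library. Leukocytes served as the level that free RNA gives, with the limit that blood cells can express some Hox genes. All intervals cover counting error only. In the fibroblast-like cells, 1307 untreated, 1726 hydrogel and 4993 CO hydrogel cells, 4 Hox genes were on in the untreated library (Hoxb7, Hoxc8, Hoxc9 and Hoxc10). In the hydrogel and the CO hydrogel library 3 were on, Hoxc4, Hoxc8 and Hoxc9 in both. Among all genes with at least 5 UMIs there, 42.9%, 33.1% and 29.7% were on by the same rule, against 4 of 19, 3 of 16 and 3 of 18 Hox genes. Hoxc8 and Hoxc9 were on in all 3 libraries. Hoxc4 untreated and Hoxb7 with CO hydrogel were expressed at levels a little under 5 CPM, so their calls rest on the cutoff.

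**Figure D1:**
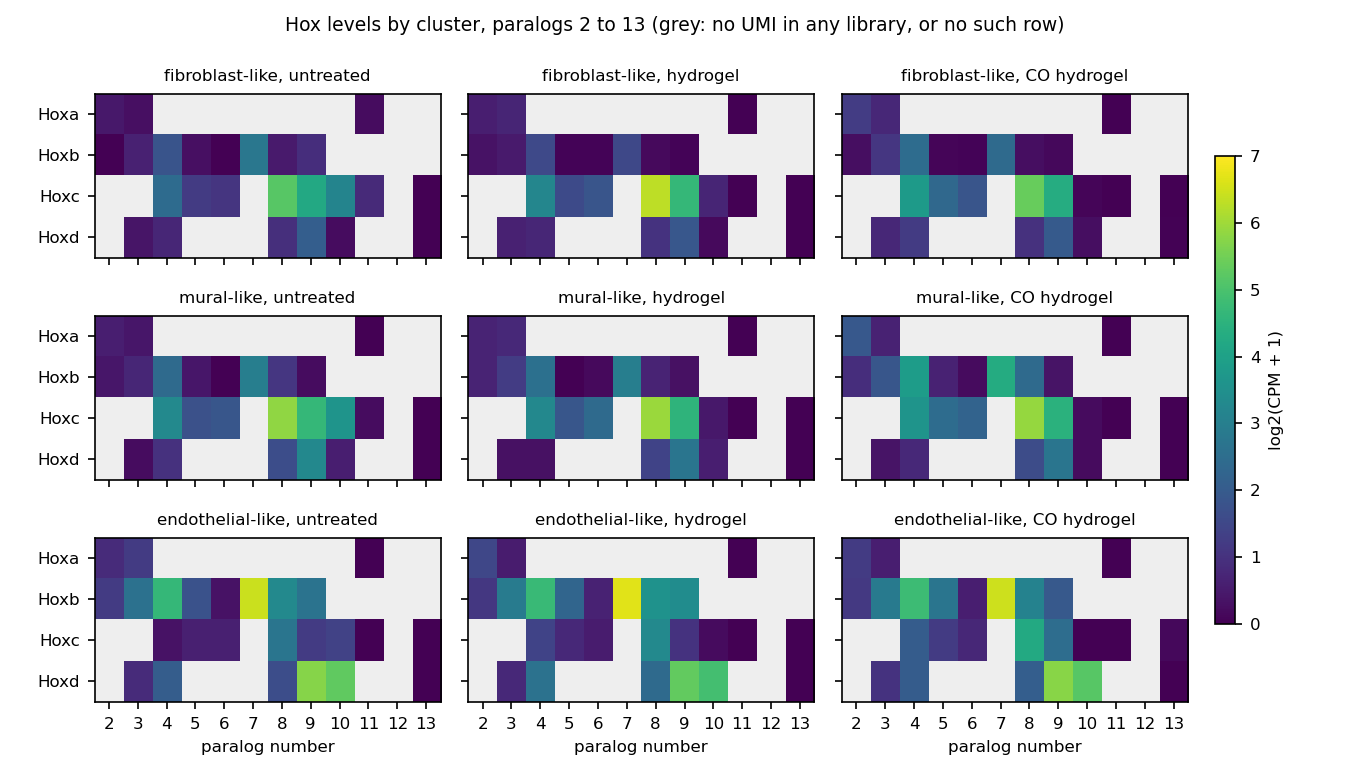
Level of each Hox gene as log2(CPM + 1) by genomic cluster (rows) and paralog number (columns, from 2 to 13), for fibroblast-like, mural-like and endothelial-like cells (from top) of the 3 libraries (from left). Fibroblast-like and mural-like cells show a run of cluster C genes that reaches Hoxc10 in the untreated library, while endothelial-like cells show Hoxb7, Hoxd9 and Hoxd10 in all 3 libraries.

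Hoxc10 separated the untreated library from both others. In fibroblast-like cells it was at 7.87 CPM untreated (95% Poisson interval 6.74 to 9.14, 172 UMIs), 0.646 CPM with hydrogel (0.362 to 1.07, 15 UMIs) and 0.064 CPM with CO hydrogel (0.013 to 0.187, 3 UMIs). No interval overlapped another, and the untreated library was the high one. The log2 ratio of hydrogel to untreated was -3.61 (95% interval -4.48 to -2.84) and that of CO hydrogel to untreated -6.94 (-9.23 to -5.37). At least 1 Hoxc10 UMI was found in 11.9% of untreated fibroblast-like cells (exact binomial interval 10.2 to 13.8, median depth 16241 UMIs), 0.811% of hydrogel cells (0.444 to 1.36, median 13491) and 0.06% of CO hydrogel cells (0.012 to 0.175, median 9172). In leukocyte-like cells the share was 0.027% untreated (2 of 7437 cells, median 2197 UMIs), 0 of 6665 hydrogel cells (median 4108), and 0 of 4208 CO hydrogel cells (median 4183). With every cell thinned to 1000 UMIs the fibroblast share was 1.14% of 1231 untreated cells, 0.06% of 1654 hydrogel cells and 0 of 4829 CO hydrogel cells, where a count of 0 allows up to 0.062%. Thinning left out 76, 72 and 164 shallower cells, and no thinned leukocyte-like cell of any library held a Hoxc10 UMI (0 of 7165, 6510 and 3965, which allows up to 0.042%, 0.046% and 0.076%).

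The difference in Hoxc10 was found in each fibroblast cluster with enough cells. Cluster 10, led by Cxcl13 and Angptl1, had 9.40 CPM untreated, 0.419 CPM with hydrogel and 0.039 CPM with CO hydrogel. Cluster 11, led by Gap43 and holding the adventitial markers Dpp4 and Pi16 among its leading genes, had 7.62 CPM untreated, 0 UMIs with hydrogel (up to 2.03 CPM at the upper Poisson bound) and 0.12 CPM with CO hydrogel. Cluster 12, led by Tnn, had 7.26 CPM untreated, 0.746 CPM with hydrogel and 0.099 CPM with CO hydrogel. Cluster 13, led by Cilp and Cxcl14, had only 12 untreated cells and 1 Hoxc10 UMI among them. The clusters were mixed differently in the libraries, since cluster 11 held 644 of the 1307 fibroblast-like cells without hydrogel, 125 of the 1726 with hydrogel and 848 of the 4993 with CO hydrogel. The order of the libraries in Hoxc10 was the same with equal weights: with the 3 larger clusters weighted equally the levels were 8.10, 0.388 and 0.086 CPM. Without the barcodes shared between libraries the fibroblast levels were 8.13, 0.672 and 0.022 CPM.

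**Figure D2:**
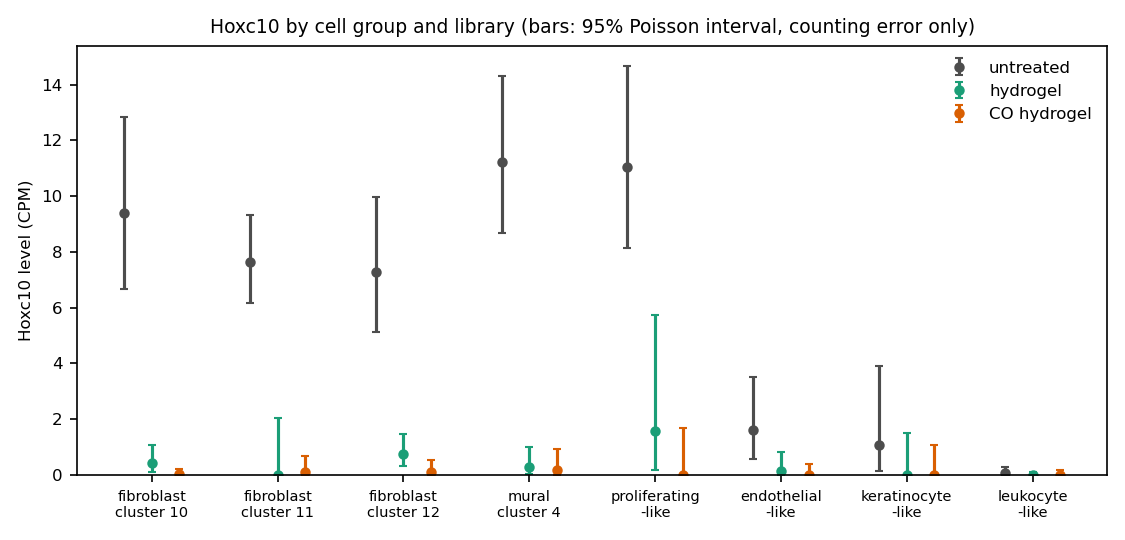
Hoxc10 level in CPM by cell group and library, with points for the level and bars for the 95% Poisson interval. The untreated library lies above both others in the 3 larger fibroblast clusters, in mural cluster 4 and in proliferating-like cells, and Hoxc10 is at or near 0 in leukocyte-like cells of all 3 libraries.

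Hoxc10 was also on in the untreated mural-like cells, the pericytes and smooth muscle cells of vessel walls. There it was at 11.4 CPM untreated (8.83 to 14.4, 68 UMIs), 0.377 CPM with hydrogel (0.078 to 1.10, 3 UMIs) and 0.148 CPM with CO hydrogel (0.004 to 0.827, 1 UMI). The log2 ratio to untreated was -4.92 for hydrogel (-7.23 to -3.31) and -6.26 for CO hydrogel (-11.58 to -3.73). In endothelial-like cells, which line the vessels, Hoxc10 gave 6 UMIs untreated, 1 with hydrogel and 0 with CO hydrogel and was not on in any library. Proliferating-like cells had 11.1 CPM untreated (48 UMIs), 1.58 CPM with hydrogel (2 UMIs) and 0 UMIs with CO hydrogel. Hoxc10 was therefore on in 2 of the 3 main classes of the untreated library and in none of the other libraries.

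Within the untreated fibroblast-like cells, those with and without a Hoxc10 UMI had near levels of its neighbours. Hoxc8 was at 33.0 CPM in the 156 cells with Hoxc10 and 35.4 CPM in the 1151 cells without it, and Hoxc9 was at 18.9 CPM and 17.4 CPM. The share of cells with a Hoxc8 UMI was 42.3% among the cells with Hoxc10 and 33.9% among the others, and the median depth of these cells was 21082 and 15623 UMIs, which moves such shares. In untreated mural-like cells both neighbours had a higher summed level beside a Hoxc10 UMI. Hoxc8 was at 72.6 CPM (55 UMIs) in the 58 cells with Hoxc10 and 53.6 CPM in the 526 without. Hoxc9 was at 31.7 CPM (24 UMIs) and 23.4 CPM, and the median depths were 11734 and 9146 UMIs. These levels rest on few UMIs and are given without intervals, and the difference was not tested.

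Beyond Hoxc10, 2 sparse posterior members had the same direction and are named here after their values were seen. Hoxc11 gave 17 UMIs in untreated fibroblast-like cells and 0 in both other libraries. Taking 3 counts as the limit in a library at 0, its level of 0.778 CPM untreated was at least 6.02-fold higher than with hydrogel and at least 12.1-fold higher than with CO hydrogel. Hoxb9 gave 19 UMIs untreated (0.87 CPM), 1 with hydrogel and 5 with CO hydrogel, a log2 ratio to untreated of -4.34 (-9.71 to -1.68) and -3.03 (-4.80 to -1.56). Both were below the level called on, so they rest on few molecules.

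The central cluster C genes Hoxc8 and Hoxc9, which are used along the thoracic trunk, were on in fibroblast-like cells of every library. Hoxc9 was at 17.7 CPM untreated (15.9 to 19.5), 24.1 CPM with hydrogel (22.1 to 26.2) and 19.2 CPM with CO hydrogel (17.9 to 20.4). These levels lay close together, and the untreated and CO hydrogel intervals overlapped. Hoxc8 was at 34.97 CPM untreated (32.5 to 37.5), 77.8 CPM with hydrogel (74.3 to 81.5) and 40.6 CPM with CO hydrogel (38.8 to 42.5), which put the hydrogel library above both others, at a log2 ratio to untreated of 1.15 (1.03 to 1.28). Hoxc8 also differed between clusters, and cluster 11 had lower levels than cluster 12. In cluster 11 it was at 28.1 CPM untreated, 37.9 with hydrogel and 15.0 with CO hydrogel, against 46.4, 97.4 and 70.7 CPM in cluster 12. Equal weights moved the log2 ratio of hydrogel to untreated in both directions. It was 0.76 with the 3 larger clusters, which is under 2-fold. With all 4 clusters, including cluster 13 with its 12 untreated cells, it was 1.29 (29.2 and 71.3 CPM). Within each of the 3 larger clusters the hydrogel library had the highest level. In cluster 11 its interval (29.5 to 48.0 CPM) overlapped the untreated one (25.2 to 31.2 CPM).

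The rostral members of cluster C, Hoxc4, Hoxc5 and Hoxc6, had their lowest summed levels in the untreated fibroblast-like cells. Hoxc4 was at 4.49 CPM untreated (3.64 to 5.47, 98 UMIs), 8.32 CPM with hydrogel (7.19 to 9.58, 193 UMIs) and 13.1 CPM with CO hydrogel (12.1 to 14.2, 615 UMIs), with no overlap between intervals. Its log2 ratio to untreated was 0.89 (0.53 to 1.26) for hydrogel and 1.55 (1.24 to 1.87) for CO hydrogel. Hoxc5 was at 1.33, 1.98 and 4.12 CPM, and its CO hydrogel level was apart from both others (log2 ratio to untreated 1.63, interval 1.07 to 2.25). Hoxc6 was at 1.10 CPM untreated and at 2.58 and 2.60 CPM in the hydrogel libraries, which did not differ beyond counting error (log2 ratio of CO hydrogel to hydrogel 0.01, interval -0.45 to 0.48). The 24 untreated Hoxc6 UMIs make it the least certain of the group. The order depended on cluster 13 with its 12 untreated cells. With all 4 clusters weighted equally Hoxc4 kept its order (5.22, 8.62 and 14.01 CPM), while Hoxc5 was at 2.76, 1.66 and 5.08 CPM and Hoxc6 at 2.74, 1.88 and 2.64 CPM. With the 3 larger clusters weighted equally Hoxc5 was at 1.25, 1.91 and 4.03 CPM and Hoxc6 at 1.22, 2.51 and 2.64 CPM, lowest untreated again.

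Cluster B in the fibroblast-like cells followed another order. Hoxb7, a thoracic gene, was at 5.81 CPM untreated (4.85 to 6.92), 1.85 CPM with hydrogel (1.34 to 2.50) and 4.33 CPM with CO hydrogel (3.76 to 4.97). Hoxb4, a neck and upper trunk gene, was at 2.52 CPM untreated (1.90 to 3.28), 1.90 CPM with hydrogel (1.378 to 2.54) and 4.53 CPM with CO hydrogel (3.94 to 5.18). For both genes the hydrogel library was the low one, with a log2 ratio of CO hydrogel to hydrogel of 1.23 (0.74 to 1.74) for Hoxb7 and 1.25 (0.78 to 1.76) for Hoxb4. Hoxb7 was above the 5 CPM level only in the untreated library, although the CO hydrogel library was close to it (log2 ratio -0.42, interval -0.75 to -0.09). That ratio turned to 0.19 with all 4 clusters weighted equally (4.11 CPM untreated and 4.69 CPM with CO hydrogel), and the levels were 5.47 and 5.26 CPM with the 3 larger ones. Hoxd9, a lumbar and proximal limb gene, was at 3.30, 2.76 and 2.95 CPM with overlapping intervals. Of the members with fewer UMIs, Hoxa2 (8, 12 and 65 UMIs) and Hoxb3 (12, 10 and 54 UMIs), named after their values were seen, were at 0.366, 0.517 and 1.39 CPM and at 0.549, 0.431 and 1.15 CPM.

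Counted over fibroblast-like cells, a member was called when its levels were at least 2-fold apart and both libraries together gave it at least 20 UMIs, a minimum that a gene high in only 1 library can also pass. From untreated to hydrogel 3 of 16 measured Hox genes were higher, where 8.46% of all genes were, and 3 were lower, where 3.2% of all genes were. From untreated to CO hydrogel 7 of 16 were higher (9.12% of all genes) and 2 were lower (3.57% of all genes). From hydrogel to CO hydrogel 5 of 14 were higher (3.22% of all genes) and 0 were lower (3.61% of all genes). The median log2 ratio of the measured Hox genes was 0.31, 0.90 and 0.50 in these comparisons, against 0.16, 0.15 and -0.01 over all genes tested. The comparisons share libraries, so they are not independent of each other.

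**Figure D3:**
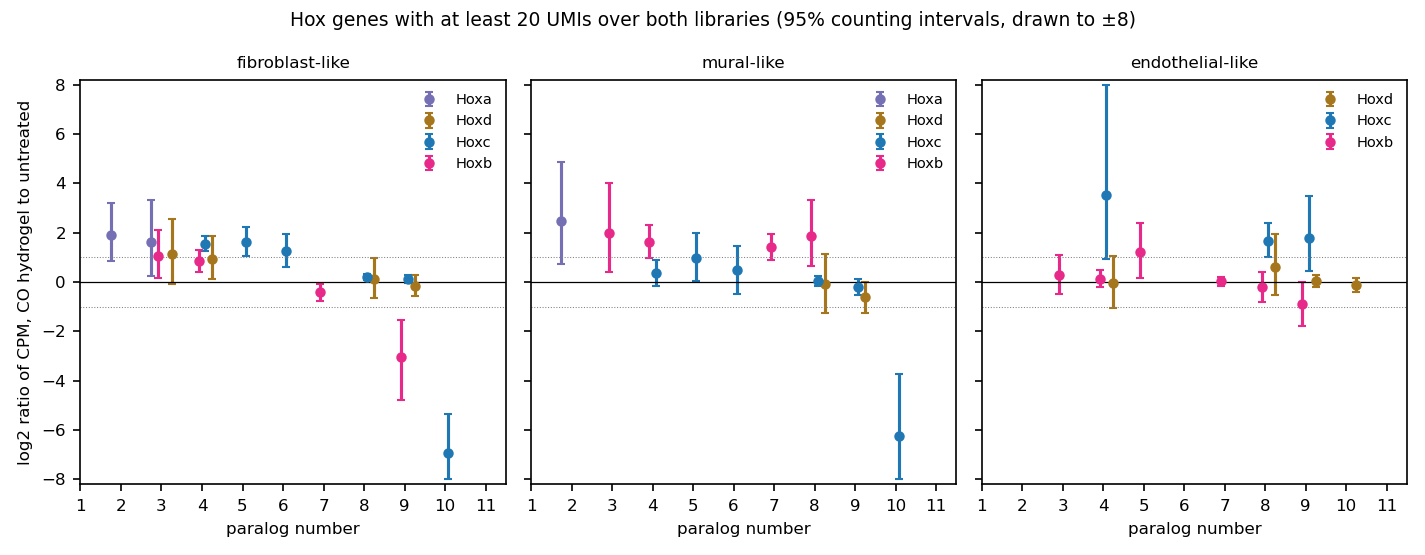
Log2 ratio of CPM, CO hydrogel to untreated, against paralog number for Hox genes with 20 or more UMIs in the pair of libraries, coloured by genomic cluster, with 95% counting intervals and dotted lines at 2-fold. In fibroblast-like cells paralogs 2 to 6 lie above 0 and Hoxb9 and Hoxc10 far below it, in mural-like cells Hoxc10 is the low point, and in endothelial-like cells Hoxb7, Hoxd9 and Hoxd10 lie near 0.

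Summed by position, paralog groups 9 to 13 held a larger share of the Hox UMIs in untreated fibroblast-like cells. Paralog groups 9 to 13 gave 36.4% of the 1852 Hox UMIs untreated (exact binomial interval 34.2 to 38.6), 21.9% of 2935 with hydrogel (20.4 to 23.4) and 22.8% of 4617 with CO hydrogel (21.6 to 24.0). Paralog groups 10 to 13 alone gave 10.6% (9.27 to 12.1), 0.613% (0.364 to 0.968) and 0.282% (0.15 to 0.481), and Hoxc10 gave most of the untreated UMIs of these groups. Posterior members did not all follow: Hoxc9 was not higher untreated, Hoxd9 had overlapping intervals and Hoxd10 gave few UMIs in every library. The higher Hoxc8 level with hydrogel also lowers the shares of other members in that library. Paralog groups 1 to 5 gave 12.6% (11.2 to 14.2), 12.1% (10.97 to 13.4) and 27.7% (26.4 to 29.0). The CO hydrogel library thus stood apart in groups 1 to 5, and the untreated library in groups 10 to 13, there mostly through Hoxc10. Such shares compare libraries and not genes, since a 3′ assay counts each gene at its annotated end. Cluster C gave 80.5%, 91.3% and 80.8% of the Hox UMIs of fibroblast-like cells, and cluster B 12.3%, 3.71% and 10.8%.

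In mural-like cells, 584 untreated, 968 hydrogel and 1109 CO hydrogel cells, 6 Hox genes were on in each library. Among all genes with at least 5 UMIs there, 51.0%, 38.8% and 36.1% were on, against 6 of 12, 6 of 14 and 6 of 14 Hox genes. Hoxb7, Hoxc4, Hoxc8, Hoxc9 and Hoxd9 were on in all 3 libraries, Hoxc10 in the untreated library alone, and Hoxb4 in the hydrogel and CO hydrogel libraries. Hoxb4 lay near 5 CPM both untreated and with hydrogel, so its calls there rest on the cutoff. Hoxc8 was at 56.0, 60.8 and 57.9 CPM, Hoxc9 at 24.4, 22.5 and 21.2 CPM, and Hoxc4 at 8.87, 8.67 and 11.3 CPM. For these 3 genes all intervals overlapped between libraries, while Hoxc4 and Hoxc8 had differed in fibroblast-like cells. Hoxd9 was at 8.70, 5.53 and 5.64 CPM, again with overlapping intervals.

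The rostral and central cluster B genes of mural-like cells were highest in the CO hydrogel library. Hoxb4 was at 4.35 CPM untreated (2.84 to 6.37), 5.03 CPM with hydrogel (3.59 to 6.85) and 13.5 CPM with CO hydrogel (10.9 to 16.6). Hoxb7 was at 7.03 CPM untreated (5.06 to 9.497), 6.91 CPM with hydrogel (5.21 to 9.00) and 18.7 CPM with CO hydrogel (15.6 to 22.3). Hoxb8, at 1.17, 0.628 and 4.31 CPM, Hoxb3, at 0.669, 1.383 and 2.67 CPM, and Hoxa2, at 0.502, 0.628 and 2.82 CPM, also had their highest level in the CO hydrogel library, with fewer UMIs. Fibroblast markers in mural-like cells, 8 of 8 detected in each library, summed to 8520, 15091 and 19034 CPM, while 13 mural markers, all detected, summed to 9875, 9679 and 9802 CPM. The part of fibroblast RNA in these values was not tested. Hoxc5 was at 2.34, 2.64 and 4.60 CPM, Hoxc6 at 2.68, 4.40 and 3.71 CPM, and Hoxd8 at 2.17, 1.63 and 2.08 CPM, all with overlapping intervals.

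From untreated to hydrogel 0 of 10 measured Hox genes of mural-like cells were at least 2-fold higher (5.47% of all genes) and 1 was lower, Hoxc10 (1.42% of all genes). From untreated to CO hydrogel 5 of 13 were higher (5.92% of all genes) and 1 was lower, again Hoxc10 (1.93% of all genes). From hydrogel to CO hydrogel 4 of 12 were higher (1.81% of all genes) and 0 were lower (2.25% of all genes). The medians were -0.03, 0.47 and 0.59 for Hox genes and 0.09, 0.10 and 0.00 for all genes. Paralog groups 9 to 13 gave 33.9% of mural Hox UMIs untreated (30.6 to 37.3), 23.5% with hydrogel (20.9 to 26.3) and 18.0% with CO hydrogel (15.7 to 20.5). Cluster B gave 10.5%, 12.1% and 27.0% of them.

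Endothelial-like cells, 297 untreated, 761 hydrogel and 1232 CO hydrogel cells, carried another set, mostly from clusters B and D. On were 8 Hox genes untreated, 9 with hydrogel and 8 with CO hydrogel, which is 8 of 15, 9 of 17 and 8 of 20 Hox genes with at least 5 UMIs, while 56.2%, 42.9% and 39.2% of all such genes were on. On in all 3 libraries were 7 genes: Hoxb3, Hoxb4, Hoxb7, Hoxb8, Hoxc8, Hoxd9 and Hoxd10. Cluster B gave 55.3%, 63.4% and 52.4% of the endothelial Hox UMIs and cluster D 39.7%, 30.7% and 36.3%, whereas cluster C, which gave most Hox UMIs of fibroblast-like cells, gave 4.11%, 5.04% and 10.6%.

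Hoxb7 was at 85.9 CPM untreated (76.7 to 95.8), 103 CPM with hydrogel (95.1 to 111) and 87.4 CPM with CO hydrogel (81.6 to 93.5) in endothelial-like cells. Hoxd9 was at 51.5 CPM (44.5 to 59.4), 38.6 CPM (34.1 to 43.6) and 52.8 CPM (48.3 to 57.5). Hoxd10, a gene of the caudal trunk and limbs, was at 38.1 CPM (32.1 to 44.9), 28.9 CPM (25.0 to 33.3) and 35.3 CPM (31.7 to 39.3). The hydrogel library had the lowest Hoxd9 level, below both other intervals. In the fibroblast-like cells, which hold far more UMIs in all, Hoxd10 gave only 4, 3 and 9 UMIs. A Hoxb7 UMI was found in 43.4%, 44.5% and 35.7% of endothelial-like cells at median depths of 7538, 6111 and 4459 UMIs, against 0.081%, 0.375% and 0.309% of leukocyte-like cells. Thinned to 1000 UMIs these shares were 9.68% of 248, 10.3% of 658 and 7.29% of 1056 endothelial-like cells, and 0.056%, 0.138% and 0.076% of leukocyte-like cells. For Hoxd9 the thinned endothelial shares were 6.05%, 4.86% and 5.30%, against 0.014%, 0.061% and 0.05% of leukocyte-like cells.

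Other cluster B genes of endothelial-like cells lay less than 2-fold apart, except Hoxb5 and Hoxb9. Hoxb4 was at 24.4, 26.0 and 26.8 CPM, Hoxb8 at 8.86, 10.9 and 7.63 CPM, Hoxb3 at 5.10, 6.56 and 6.18 CPM, Hoxb5 at 2.42, 3.88 and 5.57 CPM, and Hoxb2 at 1.34, 1.19 and 1.24 CPM. Hoxb9, a gene of the caudal thorax, was at 5.37 CPM untreated (3.28 to 8.29), 9.55 CPM with hydrogel (7.35 to 12.2) and 2.88 CPM with CO hydrogel (1.92 to 4.17), a log2 ratio of CO hydrogel to hydrogel of -1.73 (-2.42 to -1.06). In cluster D, Hoxd4 was at 3.22, 5.22 and 3.09 CPM and Hoxd8 at 2.15, 4.33 and 3.30 CPM, with overlapping intervals between all libraries. The single cluster A gene with 20 UMIs in the class, Hoxa2, was at 0.805, 1.79 and 1.34 CPM.

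The rostral and central cluster C genes of endothelial-like cells, Hoxc4 to Hoxc9, were highest in the CO hydrogel library, unlike Hoxc10. Hoxc8 was at 5.64 CPM untreated (3.49 to 8.62), 8.80 CPM with hydrogel (6.70 to 11.4) and 18.0 CPM with CO hydrogel (15.5 to 20.9). Hoxc9 was at 1.34, 1.04 and 4.64 CPM, Hoxc4 gave 1, 11 and 30 UMIs, Hoxc5 gave 2, 5 and 13 UMIs, and Hoxc6 gave 2, 3 and 7 UMIs. The class held 3725430, 6704710 and 9704215 UMIs in all, so the last 3 sets of counts are not levels and overstate the rise. Hoxc5 and Hoxc6 rest on few molecules. Markers of fibroblasts moved the same way in this class: the summed level of 8 fibroblast markers, all 8 of them detected in each library, was 1364 CPM untreated, 1131 CPM with hydrogel and 3553 CPM with CO hydrogel, against 86213, 69713 and 82079 CPM in fibroblast-like cells. In these cells Hoxc8 stood at 16.1%, 11.3% and 44.4% of its fibroblast level, while 9 matrix genes of fibroblasts stood at a median of 1.49%, 1.44% and 3.61%, and at no more than 5.21%, 5.81% and 10.1%. Mural markers, 12 of 13 detected untreated (Cnn1 at 0) and 13 in the other libraries, were at 810, 925 and 1655 CPM in endothelial-like cells. Lymphatic endothelial markers were at 315, 56.5 and 489 CPM, with 6, 5 and 6 of 6 detected. The part of RNA or cells of these kinds in the cluster C values was not tested.

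From untreated to hydrogel 1 of 11 measured Hox genes of endothelial-like cells was at least 2-fold higher, Hoxd8 (5.85% of all genes), and 0 were lower (1.69% of all genes). From untreated to CO hydrogel 4 of 13 were higher, Hoxb5, Hoxc4, Hoxc8 and Hoxc9 (9.41% of all genes), and 0 were lower (2.42% of all genes). From hydrogel to CO hydrogel 2 of 15 were higher (4.15% of all genes) and 1 was lower, Hoxb9 (2.36% of all genes). The medians were 0.36, 0.13 and 0.05 for Hox genes and 0.10, 0.06 and -0.03 for all genes. Paralog groups 9 to 13 gave 40.6% (37.3 to 43.8), 30.8% (28.6 to 33.0) and 36.3% (34.4 to 38.2) of endothelial Hox UMIs.

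Levels relative to fibroblast-like cells of the same library set the classes apart. Hox genes with at least 20 fibroblast UMIs in the library were used, 10 untreated, 9 with hydrogel and 14 with CO hydrogel. The Hox medians and ranges are therefore not over the same genes in each library. Mural-like cells had a median of 175% of the fibroblast level untreated, 158% with hydrogel and 143% with CO hydrogel. The 9 matrix genes had medians of 3.32%, 10.2% and 8.86% there. Endothelial-like cells ranged from 5.98% (Hoxc4) to 1564% (Hoxd9) untreated, from 4.33% (Hoxc9) to 5538% (Hoxb7) with hydrogel, and from 23.5% (Hoxc4) to 2016% (Hoxb7) with CO hydrogel. The matrix genes ranged from 0.868% to 5.21% untreated, 0.766% to 5.81% with hydrogel and 2.14% to 10.1% with CO hydrogel in endothelial-like cells, so Hoxc9 with hydrogel lay inside their range. In mural-like cells the lowest Hox value was 121%, 78.2% and 42.2%, and the highest matrix value 79.4%, 70.0% and 66.3%. The part of free RNA in these values was not tested. In leukocyte-like cells the Hox medians were 3.66%, 2.02% and 8.07%, beside 1.25%, 1.26% and 2.21% for 8 matrix genes. The highest Hox value there was 56.6%, 86.7% and 41.6%, and the highest matrix value 36.8%, 15.2% and 7.15%.

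**Figure D4:**
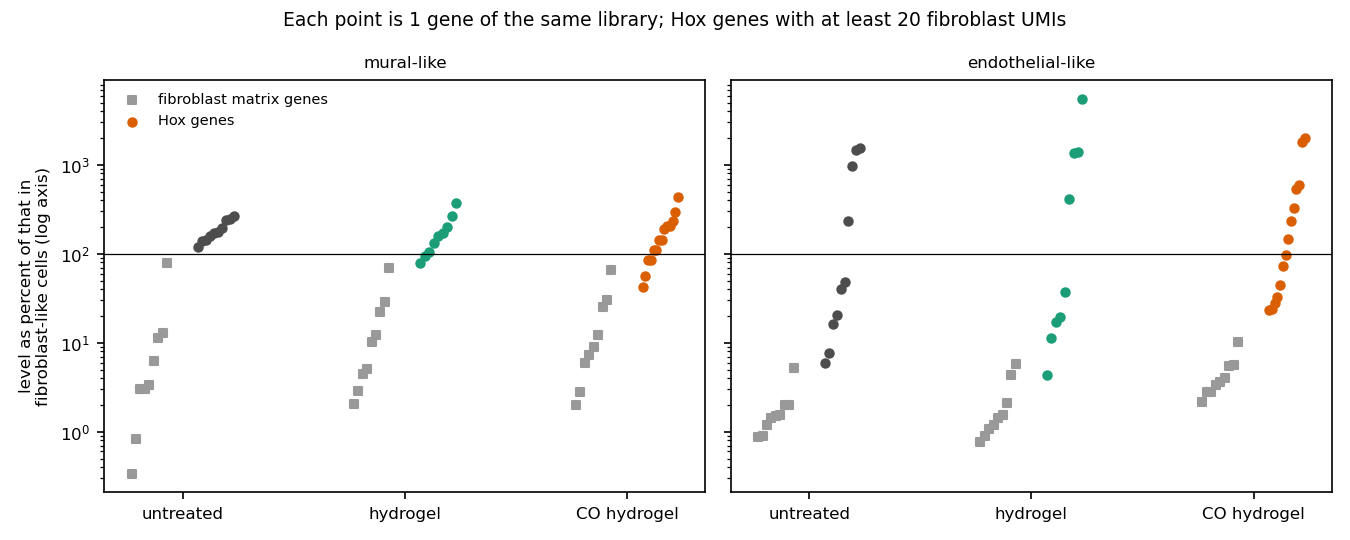
Level of Hox genes with at least 20 fibroblast UMIs in the library (circles) and of 9 fibroblast matrix genes (grey squares) in mural-like (left) and endothelial-like (right) cells. Values are percent of the level in fibroblast-like cells of the same library, on a log axis. Hoxd10, with fewer fibroblast UMIs, is not drawn. Mural Hox genes lie around or above 100% with matrix genes mostly far below, although the lowest Hox value of the CO hydrogel library (42.2%) is under its highest matrix value (66.3%), and endothelial Hox genes spread from a few percent (cluster C) to 5538% (Hoxb7, hydrogel).

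Myoblasts, the muscle precursors that the comparison was also meant to cover, could not be named as a class. One unnamed cluster, cluster 5, was led by muscle genes (Acta1, Mylpf, Myl1, Tnnc2, Ckm, Tnni2 and Myog) together with the fat cell genes Retn and Adipoq, and no marker list reached the score and number of detected genes required for a name. It held 0 untreated, 26 hydrogel and 291 CO hydrogel cells, and only 23 of the last had UMIs of at least 2 of 11 muscle precursor markers. In its hydrogel cells 1 of 15 muscle genes was detected (6.36 CPM), against 56528 CPM for fat cell markers. In its CO hydrogel cells 14 of 15 muscle genes summed to 6016 CPM, beside 21210 CPM for fibroblast, 4193 CPM for fat cell and 2997 CPM for mural markers. Keratinocyte markers were at 2112 CPM, macrophage or monocyte markers at 1394 CPM and endothelial markers, 12 of 12 detected, at 1195 CPM, so the cluster was mixed. Of its 175 Hox UMIs with CO hydrogel, Hoxb7 gave 32 (23.2 CPM, interval 15.8 to 32.7) and Hoxc8 and Hoxd9 27 each (19.5 CPM, 12.9 to 28.4). Hoxb4 gave 16 (11.6 CPM), Hoxc4 15 (10.9 CPM), Hoxd10 11 (7.96 CPM) and Hoxc10 0 (up to 2.67 CPM at the upper Poisson bound). Hoxb7, Hoxd9 and Hoxd10 were also the highest Hox genes of endothelial-like cells. The part of other cells or their RNA in these values was not tested. The hydrogel cells of cluster 5 held 10 Hox UMIs, 5 of them from Hoxc8. In any class, cells with at least 2 of the 11 markers numbered 6, 16 and 53. Those of unnamed clusters, a gate chosen after the data were seen, numbered 0 untreated, 0 with hydrogel and 24 with CO hydrogel. These 24 cells held 12 Hox UMIs (45.9 CPM in all), with 4 from Hoxc8, 4 from Hoxd9, 2 from Hoxc9 and 0 from Hoxc10, for which 0 UMIs allow up to 14.1 CPM at the upper Poisson bound. No comparison between libraries was possible in them.

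The genes that regulate Hox clusters were mostly less than 2-fold apart in fibroblast-like cells. Of 18 chromatin regulators of Hox clusters, 18 were measured and 1 was at least 2-fold higher in both hydrogel libraries, a share below the 8.46% and 9.12% of all genes: Cbx7, a Polycomb subunit, at 0.549, 1.34 and 1.67 CPM. The list medians from untreated to hydrogel and to CO hydrogel were 0.11 and 0.24 for the 8 measured of 9 Hox partner proteins and 0.34 and 0.34 for chromatin regulators, beside 0.16 and 0.15 over all genes. No chromatin regulator was at least 2-fold lower in those comparisons, where 3.2% and 3.57% of all genes were. None was 2-fold apart in mural-like or endothelial-like cells, where between 1.42% and 9.41% of all genes were in 1 direction. In endothelial-like cells 3 of 7 measured partner proteins, named after their values were seen, were at least 2-fold higher in CPM with CO hydrogel than untreated, where 9.41% of all genes were. These were Meis1 (5, 2 and 27 UMIs), Meis2 (1, 11 and 49 UMIs) and Meis3 (10, 42 and 98 UMIs). The class held 3725430, 6704710 and 9704215 UMIs in all, so these counts are not levels. Fibroblast and mural markers of this class were also highest with CO hydrogel, and their part was not tested.

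Upstream signals that set Hox expression in the embryo differed in single members. Of 12, 8 were measured in fibroblast-like cells, with 1 at least 2-fold higher and 1 lower in each of the 3 comparisons, where between 3.2% and 9.12% of all genes were. Aldh1a2, an enzyme of retinoic acid synthesis, was at 0.778 CPM untreated, 0.733 CPM with hydrogel and 4.29 CPM with CO hydrogel, a log2 ratio of CO hydrogel to untreated of 2.46 (1.75 to 3.27). Aldh1a3, another such enzyme, was at 37.1, 11.4 and 16.5 CPM. Cdx2, a caudal homeobox gene, was at 0.87, 2.33 and 0.705 CPM. The list medians were 0.19, -0.15 and -0.17. In mural-like cells 6 were measured. From untreated to hydrogel and to CO hydrogel 1 was higher (Cdx2, with 4, 38 and 28 UMIs), where 5.47% and 5.92% of all genes were. In the same comparisons 0 were lower (1.42% and 1.93% of all genes). Between the hydrogel libraries 0 were called in either direction (1.81% of all genes higher and 2.25% lower). In endothelial-like cells 5 were measured. From untreated to hydrogel 1 was higher (5.85% of all genes) and 1 lower (1.69% of all genes). From untreated to CO hydrogel 2 were higher (9.41% of all genes) and 1 lower (2.42% of all genes). Between the hydrogel libraries 0 were called (4.15% of all genes higher and 2.36% lower).

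Of 39 other regional transcription factors of limb and body wall, 17 were measured in fibroblast-like cells from untreated to either hydrogel library. In hydrogel and CO hydrogel 0 were at least 2-fold higher, where 8.46% and 9.12% of all genes were. From untreated to hydrogel 0 were lower (3.2% of all genes). From untreated to CO hydrogel 2 were lower (3.57% of all genes), Msx1, at 124, 63.1 and 52.1 CPM, and Emx2, at 22.9, 13.2 and 10.7 CPM. From hydrogel to CO hydrogel 1 of 19 was lower (3.61% of all genes), Msx2, with 1, 18 and 16 UMIs. The list medians were 0.27, 0.25 and -0.05. The hindlimb factors Tbx4 and Pitx1 and the forelimb factor Tbx5, named after their values were seen, were near 0 in every library: Tbx4 gave 1, 0 and 1 UMIs, Tbx5 gave 1, 5 and 16, and Pitx1 gave 0, 0 and 4 in fibroblast-like cells. In mural-like cells 0 of 17 were higher in any comparison, where between 1.81% and 5.92% of all genes were. From untreated to hydrogel and to CO hydrogel 1 was lower, where 1.42% and 1.93% of all genes were.

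In endothelial-like cells the same regional factors stood higher with CO hydrogel. From untreated to CO hydrogel 9 of 14 were at least 2-fold higher (9.41% of all genes), with a median log2 ratio of 1.32 against 0.06 over all genes, from hydrogel to CO hydrogel 4 of 14 (4.15% of all genes), and from untreated to hydrogel 1 of 10 (5.85% of all genes), with 0 lower in each. Among the 9, named after their values were seen, Twist1 was at 35.2, 62.5 and 93.5 CPM, Prrx1 at 16.1, 18.0 and 35.6 CPM and Tbx15 at 5.64, 6.56 and 17.8 CPM. These are factors of mesenchymal cells, and the fibroblast and mural markers of this class were also highest in the CO hydrogel library, as given above for cluster C. Their part in the counts was not tested.

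Outside the 3 main classes Hox genes were also on. In keratinocyte-like cells 3 of 6, 3 of 6 and 3 of 5 Hox genes with at least 5 UMIs were on untreated, with hydrogel and with CO hydrogel, where 52.1%, 34.2% and 36.3% of all genes were. In proliferating-like cells 5 of 12, 5 of 6 and 4 of 10 were on, where 54.0%, 47.1% and 42.4% of all genes were. Hoxb4, named after its value was seen, also met the rule in untreated dendritic-like cells (7.40 CPM, 2.72 to 16.1). It rests there on 6 UMIs in 2 cells, and these cells are part of the leukocyte-like pool.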

How the data were processed

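Single-cell 3′ libraries of 3 wounds, 1 per group, were used. The deposited matrices hold raw UMI counts per gene and barcode, made by the authors with Cell Ranger 6.0.1 per the file headers, while build rn6, DESeq 1.38.0, Seurat 4.2.0 and Cell Ranger 7.0.0 are named in the submitters' processing notes. How strand and reads with several matches were handled is not given in the sources used here. Cells needed 300 genes, 500 UMIs and a mitochondrial share of up to 20%. Doublets were taken as the top Scrublet scores, at a rate of 0.8% for every 1000 barcodes (9.31%, 10.8% and 11.4% removed), while Scrublet's own threshold called 0, 452 and 555. The rest were scaled to 10000, log-transformed and clustered with Hox genes left out (2000 variable genes, 30 principal components, 20 neighbours, Leiden resolution 1), and clusters were named from marker lists by a scoring rule chosen after the data were seen. Leukocyte-like cells pooled neutrophil-, macrophage or monocyte-, dendritic-, T or NK- and mast-like clusters.

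Counts were summed per class and library. With 1 library per group there was no test: levels have exact 95% Poisson intervals, shares exact binomial intervals, and ratios exact conditional binomial intervals. The ratio intervals were checked on simulated Poisson counts only, which hold no variation between cells, animals or libraries. All intervals cover counting error only, and a class at 0 was given a limit of 3 counts. Named were Hox genes with at least 100 UMIs over the libraries in fibroblast-like cells, or 20 in another class, and listed genes at least 2-fold apart, with exceptions marked in the text; some of these genes are not reported here. The Hox members and gene lists were chosen with earlier results of these data known. Tried as alternatives were keeping all doublets, filtering at 1000 UMIs, 500 genes and 10% mitochondrial UMIs, thinning to 1000 UMIs, clustering at resolution 2 or within each library, equal cluster weights, per-cell means, TMM factors, other thresholds and, chosen after seeing the data, leaving out shared barcodes and weighting the 3 larger fibroblast clusters equally. TMM factors came from edgeR 4.0.16 in R 4.3.3, and all else from Python 3.11.15 with scanpy 1.11.5, scikit-learn 1.9.0, igraph 0.11.9, scipy 1.17.1, numpy 2.4.6, matplotlib 3.10.9 and pandas 2.3.3. Sequences are from RefSeq (GRCr8), whose build differs from that of the counts, and were matched by symbol.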

Additional observations from a re-analysis of the deposited data

Results flagged for a closer look

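Some Hox genes had log2 ratios of opposite sign in different cell classes of the same libraries, with counting intervals on opposite sides of 0, and these differences were not tested. For Hoxb7, CO hydrogel to hydrogel was 1.23 in fibroblast-like and -0.23 in endothelial-like cells, CO hydrogel to untreated was 1.41 in mural-like and -0.42 in fibroblast-like cells (0.19 with all 4 fibroblast clusters weighted equally, so the opposite sign was lost), and hydrogel to untreated was 0.26 in endothelial-like and -1.65 in fibroblast-like cells. For CO hydrogel to hydrogel, Hoxb8 was 2.78 in mural-like and -0.51 in endothelial-like cells, Hoxc8 was 1.03 in endothelial-like and -0.94 in fibroblast-like cells, Hoxc9 was 2.15 in endothelial-like and -0.33 in fibroblast-like cells, and Hoxd4 was 0.94 in fibroblast-like and -0.76 in endothelial-like cells. Hoxb9, hydrogel to untreated, was 0.83 in endothelial-like and -4.34 in fibroblast-like cells, where the fibroblast value rests on few UMIs. In endothelial-like cells fibroblast markers summed to 1131 CPM with hydrogel and 3553 CPM with CO hydrogel. Their part in the Hoxc8 and Hoxc9 ratios of that class was not tested.

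Hox genes were also on in classes outside the comparisons. In keratinocyte-like cells 3 were on in each library, and in proliferating-like cells 5 were on untreated, 5 with hydrogel and 4 with CO hydrogel, beside shares of all genes on of 52.1%, 34.2% and 36.3% and of 54.0%, 47.1% and 42.4%. Hoxb7 in untreated keratinocyte-like cells was at 29.6 CPM.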

How the results depend on the processing

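No paired analysis was possible because each group had 1 library. Across the alternatives, 265 of 299 recomputed ratios of the 9 Hox genes named in fibroblast-like cells stayed within the 95% counting interval of the reported value, 32 moved outside it, and 2 of those at least 2-fold as reported changed sign: with all 4 fibroblast clusters weighted equally, including the one with 12 untreated cells, the log2 ratio of Hoxc6 was -0.54 for hydrogel to untreated and -0.052 for CO hydrogel to untreated. Another 6 sign changes were of ratios under 2-fold: with the same weights Hoxc5, hydrogel to untreated, was -0.74 and Hoxb7, CO hydrogel to untreated, 0.19, Hoxc8, CO hydrogel to untreated, was -0.10 with thinning, Hoxc9 was -0.01 there with TMM factors, and Hoxc6, CO hydrogel to hydrogel, was -0.02 without shared barcodes and -0.22 by per-cell means. Hoxc10 kept its direction throughout, between -4.38 and -3.04 for hydrogel to untreated and between -8.55 and -4.11 for CO hydrogel to untreated. TMM factors shifted log2 ratios to untreated by -0.15 for hydrogel and -0.12 for CO hydrogel, and the Hoxc8 ratio of hydrogel to untreated was then 1.00.

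Of 171 recomputed counts and shares, 134 stayed near the reported value. Counts of Hox genes on followed the level required. At 10 CPM there were 2 in untreated fibroblast-like cells, 3 and 2 in untreated and hydrogel mural-like cells, and 4, 5 and 5 in endothelial-like cells of the untreated, hydrogel and CO hydrogel libraries. At 2 CPM there were 5 and 8 in hydrogel and CO hydrogel fibroblast-like cells, 10 and 12 in untreated and CO hydrogel mural-like cells, and 13 in CO hydrogel endothelial-like cells. With cells thinned to 1000 UMIs there were 5 in CO hydrogel fibroblast-like and 4 in untreated endothelial-like cells.

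Counts past 2-fold in fibroblast-like cells depended on depth and the minimum. With thinning, hydrogel to untreated had 0 higher and 0 lower, CO hydrogel to untreated 2 higher and 0 lower, and CO hydrogel to hydrogel 2 higher and 1 lower, since fewer genes reached the minimum. With a minimum of 100 UMIs, hydrogel to untreated had 1 higher, CO hydrogel to untreated 3 higher and 1 lower, and CO hydrogel to hydrogel 3 higher. With no minimum and 0.5 counts added, hydrogel to untreated had 5 higher and 7 lower, CO hydrogel to untreated 6 lower, and CO hydrogel to hydrogel 1 lower. Equal weights for the fibroblast clusters gave 5 lower for hydrogel to untreated, and no doublet removal gave 1 lower for CO hydrogel to hydrogel. The share of fibroblast Hox UMIs from paralog groups 9 to 13 was 39.4% untreated, 23.9% with hydrogel and 24.6% with CO hydrogel by per-cell means, and 24.4% and 25.7% in the hydrogel and CO hydrogel libraries with thinning. It was 24.7% with hydrogel with equal cluster weights, 25.0% with the 3 larger clusters weighted equally, and 21.6% with CO hydrogel with each library clustered by itself. Depth limits the sparse members most, since 0 UMIs in fibroblast-like cells still allow 0.137, 0.129 and 0.064 CPM untreated, with hydrogel and with CO hydrogel at 3 counts.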

Other observations

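Keratinocyte-like cells, the epithelial cells of the epidermis (96 untreated, 120 hydrogel and 245 CO hydrogel cells), shared some Hox calls with the main classes and differed in others. Hoxc4 was on with hydrogel and with CO hydrogel but not untreated, the same calls as in fibroblast-like cells. Hoxc8 was on in all 3 libraries, at 55.5 CPM untreated (45.3 to 67.3), 48.6 CPM with hydrogel (40.3 to 58.2) and 37.0 CPM with CO hydrogel (30.8 to 44.1), and Hoxb4 was on in all 3 at 10.2, 5.72 and 6.80 CPM. Hoxb7 was at 29.6 CPM untreated (22.3 to 38.6, 55 UMIs), 1.64 CPM with hydrogel (0.445 to 4.19, 4 UMIs) and 0.296 CPM with CO hydrogel (0.007 to 1.65, 1 UMI), so the untreated library alone had it on, at a log2 ratio to untreated of -4.18 (-6.11 to -2.74) for hydrogel and -6.65 (-11.98 to -4.11) for CO hydrogel. In the same libraries the endothelial-like level of Hoxb7 lay between 85.9 and 103 CPM. Hoxc9, on in fibroblast-like and mural-like cells of every library, gave 0, 4 and 2 UMIs in keratinocyte-like cells, and Hoxc10 gave 2, 0 and 0. Whether cell states within so small a class differ between the libraries was not tested.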
